A study of Mus musculus with 6 samples.

Results

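The genes of the cohesin ring, its shugoshin protectors and the securin and separase pair that controls its cleavage were followed in MII oocytes of aged mice. The 10 genes were Smc3, Smc1a, Smc1b, Rec8, Rad21, Stag3, Sgo1, Sgo2a, Pttg1 and Espl1. They were taken by gene name from a list of 60193 genes, of which 53700 were Ensembl genes, and all 10 were found there once under an Ensembl identifier. All donors were ICR mice of 42 to 45 weeks that had received PMSG, so both groups shared the strain, the age and the priming. For IVM, oocytes at the GV stage were freed of cumulus cells 46 h after PMSG and matured for 12 h in M16 medium. For IVO, hCG was given 46 h after PMSG, and matured oocytes were taken from the oviduct 14 h later. Each of the 3 IVM and 3 IVO samples pooled 20 oocytes from 3 mice, so a sample is an average over animals, and no young donors were compared. In such pools, fewer oocytes with a transcript and less of that transcript per oocyte cannot be told apart.

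Cohesin is a ring of an SMC1 protein, SMC3, a kleisin that closes the ring and a STAG protein bound to the kleisin. In meiosis, SMC1B, REC8 and STAG3 take the place of the mitotic forms SMC1A, RAD21 and STAG1 or STAG2, and in mouse oocytes the rings that hold chromatids together are loaded before birth and are little renewed. Separase cuts the kleisin at anaphase once its inhibitor securin has been degraded, and shugoshin with the phosphatase PP2A keeps centromeric REC8 uncut through the first division. An MII oocyte is arrested between these cuts, with the arms released and the centromeres still joined. Loss of cohesin is a known feature of oocytes from older females.

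Values are FPKM, the fragments on a gene per kilobase of its transcript and scaled to the size of the library, as the authors deposited them. The summed FPKM was 1826738 to 2111776 in IVM and 1560813 to 1643682 in IVO. Steps between low values gave an inferred depth of about 16530000 to 19270000 fragments in IVM and 17920000 to 18090000 in IVO. The inferred mean fragment length was 209 ± 6.66 bases in IVM and 254 ± 6.66 bases in IVO (SD, n = 3), so the groups differed in library make-up as well as in maturation, and these cannot be told apart. All 12 oocyte markers, among them Zp3 and Gdf9, had a mean of at least 1 FPKM, and their summed FPKM was 11912 to 14114 in IVM and 8557 to 9483 in IVO. Of 13 cumulus and granulosa markers 3 reached that mean, Cyp19a1, Fshr and Kitl, with a highest mean of 18.5 FPKM. Their list summed to 24.9 to 35.6 FPKM in IVM and 33.2 to 37.8 FPKM in IVO, and Amh and Pgr were listed at 0. One of 6 theca and stroma markers, Dcn, reached it (list sums 2.40 to 2.48 and 1.49 to 1.63). So did 1 of 6 oviduct markers, Epcam (list sums 2.93 to 3.16 and 3.40 to 5.76, with Pax8 at 0). Of 6 blood and immune markers 2 did, Cd68 and Lyz2, with list sums of 1.73 to 2.75 in IVM and 3.30, 6.95 and 25.0 in IVO replicates 1, 2 and 3.

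The transcript of separase was lower in IVO than in IVM oocytes, and was the only one of the 8 genes tested to pass. In that comparison 21.5% of all genes tested passed with lower values. Espl1, which encodes separase, averaged 262 FPKM in IVM and 86.1 FPKM in IVO. The transcript of the separase inhibitor securin (Pttg1) was among the most abundant of both groups, with 12489 and 13383 FPKM. Smc3, Rad21, Sgo1, Sgo2a and Smc1b were measured between 10.72 and 88.56 FPKM in every sample. The meiotic kleisin Rec8 was listed at 0 in all 6 samples and Stag3 stayed below 1 FPKM. Smc1a differed among the IVO pools by more than it differed between the groups.

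**Figure D1:**
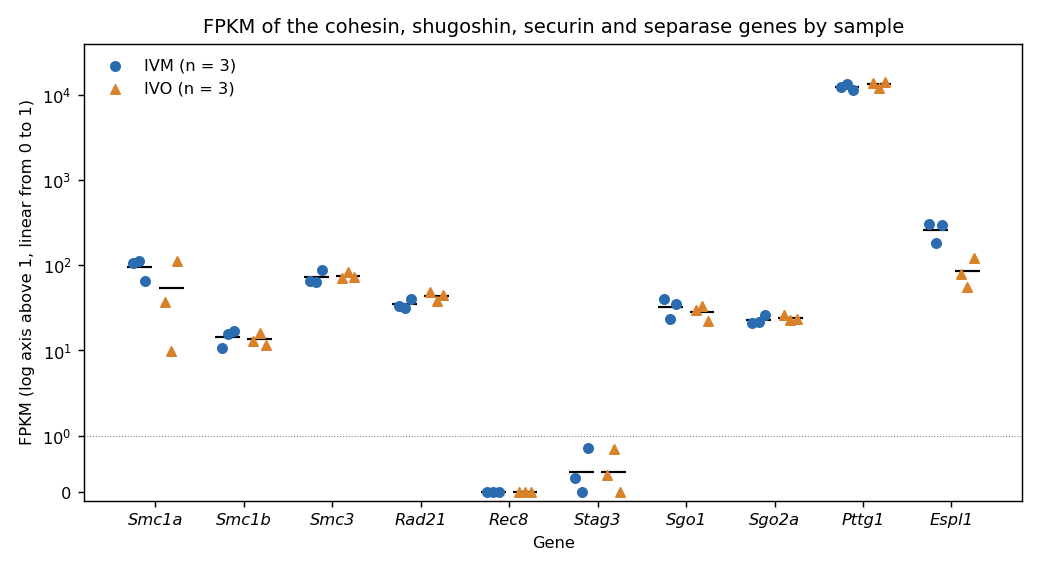
FPKM (logarithmic above 1, linear from 0 to 1) of the 10 genes in each IVM pool (circles) and IVO pool (triangles), with a bar at the mean of each group. The symbols of the groups are apart for Espl1, with 184.22 to 303.88 FPKM in IVM and 56.31 to 123.77 FPKM in IVO, and the IVO symbols of Smc1a reach from 9.86 to 113.49 FPKM.

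The difference was tested with limma on the log2(FPKM + 1) scale. The test took in the 18818 genes that averaged 1 FPKM or more over the 6 samples, and the Benjamini-Hochberg adjustment covered all of them. A gene passed with an adjusted p-value under 0.05, and was called a DEG if |log2FC| was also at least 1. Of the genes tested, 21.5% passed with lower values in IVO and 1.87% with higher values, 17.9% were DEGs lower in IVO and 0.606% DEGs higher in IVO, and the 3 IVM and 3 IVO values did not overlap for 42.2%. Rec8 and Stag3 lay below the filter. Of the 8 genes tested, 1 was a DEG lower in IVO, 0 passed with a higher value, and the groups did not overlap for 1, all counts that concern Espl1 alone. At an unadjusted p-value under 0.05 the count was also 1. The log2FC was negative for 4 and positive for 4 of them, with a median of 0.00. The median was -0.30 over all genes tested, assembled loci included, and -0.18 over the 13154 Ensembl genes tested. With median-ratio scaling of the libraries the median was 0.30 for the 8 genes and -0.04 over all genes tested, and the higher share of all genes that passed went from 7.98% to 35.1%. With each library's trend with gene length removed, these medians were -0.29 and -0.43, and that share was 5.49%.

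**Figure D2:**
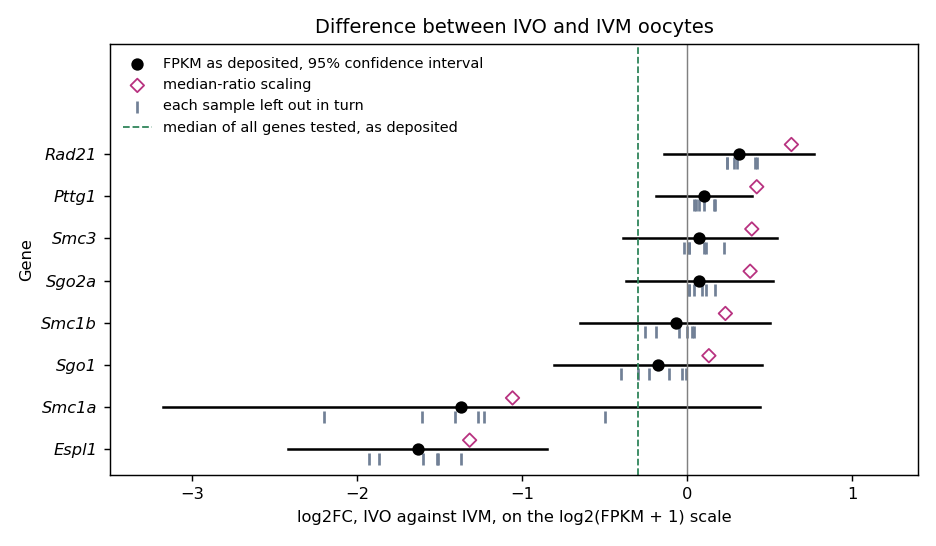
The log2FC of IVO against IVM on the log2(FPKM + 1) scale for the 8 genes tested, with 95% confidence intervals (dots and lines), the value after median-ratio scaling (diamonds) and the values with each sample left out (ticks). The interval of Espl1 runs from -2.42 to -0.85 and lies below the median of all genes at -0.30 (dashed), and that of Smc1a runs from -3.18 to 0.44.

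Smc3, the subunit present in every cohesin ring (ENSMUSG00000024974, chr19:53588818-53634295, + strand, GRCm39), had 65.97, 63.58 and 88.56 FPKM in IVM replicates 1 to 3 and 71.40, 83.06 and 72.98 FPKM in IVO. The IVO values lay inside the range of the IVM values. The log2FC was 0.07 with a standard error of 0.20 and a 95% interval of -0.39 to 0.54 (limma, adjusted p = 0.826), 0.37 above the median of all genes. Its sign changed when each library's trend with gene length was removed (-0.22). With median-ratio scaling it was 0.39, and with quantile normalization 0.58 (limma, adjusted p = 0.0769).

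Smc1b, the SMC1 form restricted to meiosis (ENSMUSG00000022432, chr15:84948882-85016204, - strand), had 10.72, 15.81 and 16.96 FPKM in IVM and 13.09, 16.08 and 11.60 FPKM in IVO. These ranges overlapped over most of their width, with means of 14.5 ± 3.32 and 13.6 ± 2.28 FPKM (SD, n = 3). The log2FC of -0.07 (interval -0.65 to 0.50, limma, adjusted p = 0.859) turned to 0.23 with median-ratio scaling. The ratio of (Smc3 + 1) to (Smc1b + 1) within a sample, which the scaling of the library changes only through the added 1 FPKM, was 2.26 ± 0.29 in IVM and 2.40 ± 0.13 in IVO on the log2 scale.

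Smc1a, the SMC1 form of dividing somatic cells (ENSMUSG00000041133, chrX:150799424-150846390, + strand), had 106.93, 113.60 and 66.03 FPKM in IVM. In IVO it had 37.57, 9.86 and 113.49 FPKM, so 2 pools lay below all IVM pools and IVO replicate 3 lay beside the highest. About 785 fragments stood behind the lowest IVO value and 9068 behind the highest. PCR copies are not separate molecules, so the error from the molecules sampled before amplification was not measured. On the log2 scale the SD among the IVO pools was 1.70, at percentile 98.3 of all genes tested, and among the IVM pools it was 0.42, at percentile 66.0. The log2FC was -1.37 with a standard error of 0.77 and an interval of -3.18 to 0.44, and did not pass (limma, adjusted p = 0.245). Without IVO replicate 3 it was -2.20 and passed (limma, adjusted p = 0.036), and without IVO replicate 2 it was -0.50 (adjusted p = 0.543). IVO replicate 3 was also the pool with the highest sum of blood and immune markers, 25.0 FPKM, and the part of that difference in the Smc1a value was not tested.

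Within the SMC1 pair, the meiotic form Smc1b made up 9.11%, 12.2% and 20.4% of the summed FPKM in IVM and 25.8%, 62.0% and 9.27% in IVO. The highest share, in IVO replicate 2, came with the lowest Smc1a value and not with an unusual Smc1b value. The log2 ratio of Smc1b to Smc1a, with 1 FPKM added to each, was -2.62 ± 0.66 in IVM and -1.33 ± 1.92 in IVO (SD, n = 3), and the difference of 1.30 had p = 0.3 in an exact two-sided permutation test. With 3 samples against 3 that test cannot give less than 0.1, so none of the 4 ratios compared this way could reach 0.05.

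**Figure D3:**
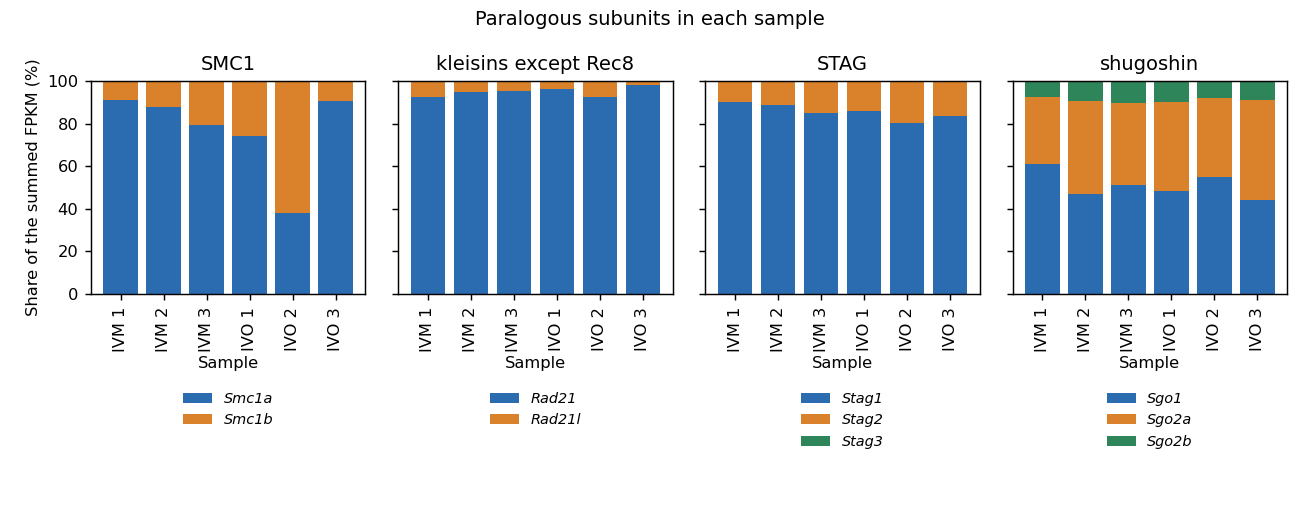
Share of the summed FPKM (percent) taken by each paralogue of the SMC1, kleisin, STAG and shugoshin families in each pool, as stacked bars that reach 100%. Smc1b ranges from 9.11% to 20.4% in IVM and from 9.27% to 62.0% in IVO, Rad21 takes 92.4% to 98.3% of the sum of Rad21 and Rad21l, from which Rec8 is left out, and Stag3 takes at most 0.606% of the STAG genes.

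Rec8, the meiotic kleisin that separase cuts (ENSMUSG00000002324, chr14:55855455-55862852, + strand), was listed at 0 in all 3 IVM and all 3 IVO pools. A failed estimate and an absent transcript would both be listed as 0, and the deposited values cannot tell them apart. No fold and no ratio is therefore given for Rec8, and the planned ratio to Rad21 had no value.

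Rad21, the kleisin of the mitotic ring (ENSMUSG00000022314, chr15:51825636-51855179, - strand), had 33.47, 31.56 and 40.68 FPKM in IVM and 48.94, 38.43 and 44.66 FPKM in IVO. The lowest IVO value lay below the highest IVM value. The log2FC was 0.31 with a standard error of 0.20 and an interval of -0.14 to 0.77 (limma, adjusted p = 0.291), which is 0.61 above the median of all genes. With median-ratio scaling it was 0.63 and passed (adjusted p = 0.0493), with quantile normalization 0.79 (adjusted p = 0.0271), and with the length trend removed 0.03 (adjusted p = 0.92). Of the FPKM summed over Rad21 and Rad21l, another meiotic kleisin, Rad21 made up 92.4%, 94.7% and 95.2% in IVM and 96.4%, 92.7% and 98.3% in IVO. Rad21l had 0.77 to 3.03 FPKM over all pools, and Rec8 was left out of this sum.

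Stag3, the meiosis-specific STAG subunit (ENSMUSG00000036928, chr5:138278502-138310655, + strand), had 0.26, 0.01 and 0.78 FPKM in IVM and 0.30, 0.76 and 0.00 FPKM in IVO. The groups overlapped over nearly their whole range, from about 1 to 58 fragments in IVM and from 0 to 53 in IVO, and the gene was not tested because its mean lay under the filter. The mitotic form Stag1 had 224.76, 185.87 and 161.67 FPKM in IVM and 136.31, 100.88 and 143.71 FPKM in IVO. The groups did not overlap for Stag1, yet the log2FC of -0.59 did not pass (limma, adjusted p = 0.0901), and Stag1 made up 87.9% ± 2.71 of the STAG genes in IVM and 83.2% ± 2.66 in IVO.

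Sgo1, the shugoshin best known from mitotic centromeres (ENSMUSG00000023940, chr17:53981814-53999468, - strand), had 39.81, 23.35 and 35.22 FPKM in IVM and 30.14, 33.42 and 22.14 FPKM in IVO. The groups overlapped, with a log2FC of -0.18 and an interval of -0.81 to 0.45 (limma, adjusted p = 0.673), which turned to 0.13 with median-ratio scaling. Sgo2a, the shugoshin that protects centromeric REC8 in mouse oocytes (ENSMUSG00000026039, chr1:58024388-58065442, + strand), had 20.79, 21.71 and 26.37 FPKM in IVM and 26.21, 22.66 and 23.43 FPKM in IVO. Its values were among the steadiest of the set, with a log2FC of 0.07 and an interval of -0.37 to 0.52 (limma, adjusted p = 0.82), and the sign changed to -0.22 with the length trend removed.

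Of the summed shugoshin FPKM, Sgo1 took 53.0% ± 7.13 in IVM and 49.2% ± 5.39 in IVO, and Sgo2a took 37.9% ± 5.94 and 42.0% ± 4.82 (SD, n = 3). The paralogue Sgo2b took the remaining 9.08% ± 1.57 and 8.83% ± 1.07, and the split of reads between Sgo2a and Sgo2b is uncertain because the genes are closely related. The log2 ratio of Sgo2a to Sgo1, formed in the same way, was -0.47 ± 0.41 in IVM and -0.22 ± 0.31 in IVO, a difference of 0.25 (exact two-sided permutation test, p = 0.5). Genes on the other strand overlap Sgo1 (Gm66098), Sgo2a (Kctd18) and Pttg1 (Slu7), and their reads cannot be told apart with a cDNA kit that does not mark strand.

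Pttg1, which encodes securin, the inhibitor that holds separase inactive until anaphase (ENSMUSG00000020415, chr11:43311071-43321000, - strand), had 12443.60, 13579.03 and 11443.65 FPKM in IVM. In IVO it had 13825.02, 12100.18 and 14223.78 FPKM. By mean FPKM it ranked 4 of all listed genes in IVM and 5 in IVO, and the ranges overlapped. The log2FC was 0.10 with a standard error of 0.12 and an interval of -0.19 to 0.39 (limma, adjusted p = 0.602), 0.40 above the median of all genes. Scaling each library to the same sum made it 0.44 (adjusted p = 0.0177), while quantile normalization, which pulls the top ranks together, made it -0.26 (adjusted p = 0.107).

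Espl1, which encodes separase, the protease that opens the ring (ENSMUSG00000058290, chr15:102204701-102233535, + strand), had 303.88, 184.22 and 299.07 FPKM in IVM and 78.14, 56.31 and 123.77 FPKM in IVO. All 3 IVO pools lay below all 3 IVM pools, and the ratio of the group means, 262 ± 67.7 and 86.1 ± 34.4 FPKM (SD, n = 3), was 0.328. At least 6465 fragments stood behind each value. The log2FC was -1.63 with a standard error of 0.33 and an interval of -2.42 to -0.85 (limma, adjusted p = 0.0141), and it was -1.34 relative to the median of all genes. It stayed negative in all 18 alternatives, from -1.93 to -1.13, and passed in 16 of them. The adjusted p-value was 0.0501 without IVM replicate 1 (log2FC -1.51) and 0.0517 without IVM replicate 3 (log2FC -1.52). With median-ratio scaling the log2FC was -1.32 (adjusted p = 0.0364), and with the length trend removed -1.92 (adjusted p = 0.00866).

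The ratio of (Pttg1 + 1) to (Espl1 + 1) was 40.8, 73.3 and 38.1 in the IVM pools and 175, 211 and 114 in the IVO pools. Every IVO pool thus had a higher ratio than any IVM pool. With a log2FC of 0.10 for Pttg1 and -1.63 for Espl1, the ratio largely restates the Espl1 difference and is no separate result. Of single genes tested, 42.2% had groups that did not overlap. On the log2 scale the ratio was 5.60 ± 0.52 in IVM and 7.33 ± 0.46 in IVO (SD, n = 3). The difference of 1.73 had p = 0.1, the smallest value that the exact two-sided permutation test can give here, and an adjusted p of 0.4 over the 4 ratios.

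The order of the FPKM levels was Pttg1, Espl1, Smc1a, Smc3, Rad21, Sgo1, Sgo2a, Smc1b and Stag3 in IVM. FPKM is divided by transcript length, listed as 696 bases for Pttg1 and 6658 for Espl1. How well such levels compare between genes of different length was not tested. Neighbours whose ranges overlapped were Smc1a and Smc3, Rad21 and Sgo1, and Sgo1 and Sgo2a. In IVO, Pttg1 was again far above all others, and the ranges of Espl1, Smc3, Smc1a and Rad21 overlapped from each to the next, with the range of Espl1 overlapping those of Smc3 and Smc1a and lying above that of Rad21. Sgo1 and Sgo2a also overlapped, and Smc1b and Stag3 came last. Rec8, listed at 0, was not placed in either order.

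The 3′ ends of these transcripts are shown because the cDNA was made from full-length polyadenylated RNA, and because oocytes regulate stored transcripts through their tails. The last 100 bases of the canonical transcript (GENCODE on GRCm39) were searched on the transcribed strand for the poly(A) signals AATAAA and ATTAAA and for TTTTAT or TTTTAAT, the letters of the cytoplasmic polyadenylation element. Of the 10 genes, 8 held a signal, all but Smc1b and Smc3, and 0 held the element, beside 73.7% and 15.9% of 21740 protein-coding transcripts. For separase, securin and the variable Smc1a, the 30 bases up to the end of the last signal read as follows, 5′ to 3′ along the transcript, with the signal in capitals and all of them in the 3′ UTR.
Espl1: AATAAATAAATAAATAAATAAATAAATAAA
Pttg1: tagtttctgtatgtatgttgtattAATAAA
Smc1a: ccgggacacagatagggtttatctAATAAA
The Espl1 stretch (chr15:102233490-102233519, + strand) holds 7 overlapping copies of the signal and ends 16 bases before the annotated end. The Pttg1 stretch (chr11:43311110-43311139, - strand) and the Smc1a stretch (chrX:150845647-150845676, + strand) hold 1 copy each, 39 and 14 bases before it. These matches describe the annotated sequence, and which ends the oocytes used was not measured.

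Of the other genes of the cohesion and segregation machinery, 67 of 68 names in 6 lists were found and 61 were tested, with 2 lower in IVO, 2 higher and 57 that did not pass, beside 21.5% lower and 1.87% higher over all genes tested. The lists and these counts describe genes chosen with results of these samples known. Their median log2FC was 0.04, beside -0.30 over all genes tested and -0.18 over the Ensembl genes tested. Of the 61, 15 had an unadjusted p-value under 0.05, beside 6950 of the 18818. After median-ratio scaling 0 passed with lower and 11 with higher values in IVO, of which 2, Esco1 and Cdk1, had passed before, and over all genes tested these counts were 2490 and 1344. With the length trend removed the direction was the other way, with 8 lower and 0 higher, beside 4547 and 264 over all genes tested. The median log2FC of the 61 was then -0.21, beside -0.43 over all genes tested.

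The 3 other core subunits, Stag1, Stag2 and Rad21l, had a median log2FC of -0.21 and none passed, with 1 at an unadjusted p-value under 0.05. Among 13 genes for loading, release and establishment of cohesin, 6 had an unadjusted p-value under 0.05. Only 1 passed, Esco1, an acetyltransferase that locks cohesin on chromatin. Esco1 had 157.75, 169.93 and 197.36 FPKM in IVM and 266.37, 251.64 and 271.37 FPKM in IVO, with the groups apart. Its log2FC was 0.59 with a standard error of 0.16 (limma, adjusted p = 0.0369), and the list had a median of -0.34. None of the 14 genes of centromeric protection tested passed (median 0.04, 1 at an unadjusted p-value under 0.05), among them Bub1 and Plk1 with log2FC of -0.24 and 0.07.

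Among 7 genes that control securin and separase, 1 passed in each direction, and 3 had an unadjusted p-value under 0.05. Cdk1, the kinase whose activity with cyclin B holds the MII arrest and inhibits separase, had 168.10, 115.63 and 113.12 FPKM in IVM and 212.10, 248.09 and 212.74 FPKM in IVO. Its log2FC was 0.78 with a standard error of 0.21 (limma, adjusted p = 0.0345), and all IVO pools lay above all IVM pools. Fzr1, the activator CDH1 of the ubiquitin ligase that degrades securin and cyclin B, had 11.34, 3.95 and 13.44 FPKM in IVM and 1.91, 2.90 and 2.04 FPKM in IVO. For Fzr1 the log2FC was -1.56 (standard error 0.42, limma, adjusted p = 0.0351), with the narrowest gap at IVM replicate 2.

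None of the 8 genes of the meiotic chromosome axis and synapsis passed (median 0.10, 0 at an unadjusted p-value under 0.05), with Hormad1, an axis protein, at 373 and 384 FPKM and Sycp3, another, at 217 and 274 FPKM in IVM and IVO. Among 16 genes of condensin and the SMC5/6 complex, 4 had an unadjusted p-value under 0.05. Only 1 passed, the condensin II subunit Ncaph2, with 4.25, 4.03 and 6.78 FPKM in IVM and 2.07, 1.54 and 2.23 FPKM in IVO. Its log2FC was -1.01 with a standard error of 0.26 (limma, adjusted p = 0.0315), with a list median of 0.16. Leaving out 1 sample at a time, Esco1 passed only without IVM replicate 3, Cdk1 only without IVM replicate 1, and Fzr1 and Ncaph2 only without IVM replicate 2. With median-ratio scaling the log2FC was 0.91 for Esco1 (adjusted p = 0.0138), 1.10 for Cdk1 (adjusted p = 0.0184), -1.30 for Fzr1 (adjusted p = 0.0599) and -0.77 for Ncaph2 (adjusted p = 0.0665). When that scaling was done on Ensembl genes only, all 4 passed. With the length trend removed and no such scaling, Fzr1 and Ncaph2 passed, and Esco1 and Cdk1 did not.

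**Figure D4:**
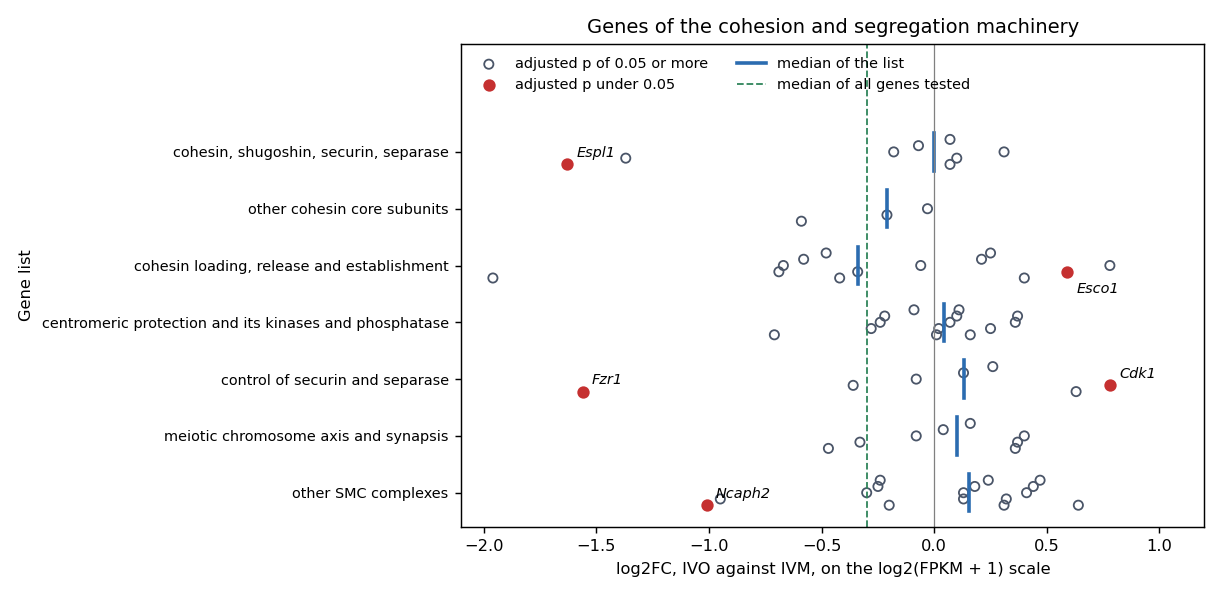
The log2FC of IVO against IVM on the log2(FPKM + 1) scale for every gene tested in the 10-gene set and in the 6 other lists, filled and named where the adjusted p-value is under 0.05, with a bar at the median of each list and a dashed line at the median of all genes, -0.30. Espl1, Fzr1 and Ncaph2 lie at -1.63, -1.56 and -1.01, and Esco1 and Cdk1 at 0.59 and 0.78. Median-ratio scaling over all genes ends the calls of Fzr1 and Ncaph2, and median-ratio scaling on Ensembl genes only keeps them. Removal of the length trend keeps the calls of Fzr1 and Ncaph2 and ends those of Esco1 and Cdk1.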

How the data were processed

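Full-length cDNA was made from 20 pooled MII oocytes per sample with the SMART-Seq v4 kit, and libraries from the Nextera XT kit were sequenced in pairs. After filtering with SeqPrep and Sickle, the authors mapped the reads to GRCm39 (HISAT2 2.1.0) and estimated abundance with RSEM 1.3.3, versions as the submitters' processing notes give them (DESeq2 1.24.0, also named there, was not used here). They deposited FPKM per gene and sample, with the length of each gene in bases. The deposited group means were not used, and counts were not analysed here. Of the 60193 genes listed, 6493 are loci assembled by the authors with no gene name.

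Samples were grouped by their titles. The test was limma 3.58.1 in R 4.3.3 (lmFit, eBayes with trend) on log2(FPKM + 1), with group as the only term, no further scaling and a mean FPKM of at least 1. Fold changes on this scale understate those of low genes. P-values are two-sided. Depth and fragment length were inferred per sample from the FPKM steps of genes with 1 transcript of 500 to 2000 bases, for values worth at most 5.5 fragments, of which 78.7% to 80.9% came out whole within 0.15 fragments. Fragment numbers are approximate and speak for counting error only, because PCR copies are not separate molecules. The fits and the depth step were tested on simulated data. Tables were made with Python 3.11.15, pandas 2.3.3, numpy 2.4.6 and scipy 1.17.1.

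The 10 genes, the pathway and marker lists and the tests were chosen with earlier results of these data known. The text names all 10 genes, and of each pathway list the genes that passed (at most 3 in each direction where more than 6 did). Other genes named beside them (Stag1, Rad21l, Sgo2b, Bub1, Plk1, Hormad1, Sycp3) were chosen after their values were seen. Tried besides were another pseudocount (0.1), other filters (none, or a mean of at least 5), 3 other scalings, eBayes without trend, removal of the length trend by lowess (span 0.3), Ensembl genes only, the replicate number as a factor and leaving out each sample. Median-ratio scaling on Ensembl genes only was added after seeing the data.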

Additional observations from a re-analysis of the deposited data

How the results depend on the processing

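With FPKM as deposited, 1 of the 8 genes of the set that were tested passed. With median-ratio scaling, quantile normalization or libraries scaled to the same sum 2 passed, Espl1 with Rad21 under both of the former and with Pttg1 under the latter. Leaving out 1 sample at a time gave 0 to 2, and 0 to 2 DEGs, with 0 without IVM replicate 1 or IVM replicate 3 and 2, Espl1 and Smc1a, without IVO replicate 3. Of the pathway genes, 4 passed as deposited, 2 with no filter or with eBayes without trend, 11 with median-ratio scaling, 17 with quantile normalization, 11 with the same sum, 8 with the length trend removed, 9 with median-ratio scaling on Ensembl genes only, and 0 to 3 with a sample left out, 0 without IVO replicate 1 or IVO replicate 2. All pathway genes that passed with median-ratio scaling over all genes, quantile normalization or the same sum were higher in IVO. All that passed with the length trend removed were lower, and so were the 2 with eBayes without trend, Fzr1 and Ncaph2. Among all genes there were 3480 DEGs as deposited, 2056 with Ensembl genes only and 1614 when these were scaled by median ratio. Of all genes that passed, 4050 were lower and 351 higher in IVO as deposited, 2019 and 2787 with quantile normalization, 2530 and 1082 with the same sum, and 1823 and 969 with median-ratio scaling on Ensembl genes only.

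The sign of 5 log2FC that did not pass changed. With median-ratio scaling, quantile normalization, the same sum and median-ratio scaling on Ensembl genes only, Smc1b was at 0.23, 0.43, 0.24 and 0.13, and Sgo1 at 0.13, 0.28, 0.15 and 0.03. With a sample left out Smc1b ranged from -0.26 to 0.04, positive without IVM replicate 3 or IVO replicate 3 (0.03), and Smc3 from -0.02 without IVM replicate 2 to 0.22. Smc3 and Sgo2a were both at -0.22 with the length trend removed. Pttg1 was at -0.26 with quantile normalization. The log2 ratio of Smc3 to Smc1b differed by 0.15 between the groups, and by -0.01 (without IVM replicate 2) to 0.27 with a sample left out. The cause of these changes was not tested. Stag3 had a log2FC only with no filter (0.00), and Rec8 in none of the fits.

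The labels number the replicates and do not say whether same-numbered samples belong together, so the main test left them unpaired. The deviations of same-numbered samples had correlations of -0.0618, -0.0176 and -0.107. Those of differently numbered samples had correlations of -0.0227 to 0.0809. With 3 samples a group these values cannot show whether pools were collected or processed together. With a replicate block 1 pathway gene passed in place of 4. This was Ddx11 (-1.96, limma, adjusted p = 0.0469), and the calls of Esco1, Cdk1, Fzr1 and Ncaph2 were lost (adjusted p = 0.0606 to 0.102). Espl1 was at -1.63 and still passed (limma, adjusted p = 0.0141), and with the block and the length trend removed Smc3 and Sgo2a were at -0.22, and Ddx11, Fzr1 and Ncaph2 passed.

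With 3 pools a group, the interval of the log2FC was narrowest for Pttg1 (-0.19 to 0.39) and widest for Smc1a (-3.18 to 0.44).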

Other observations

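Besides the 10 genes, 6 rows of the list carried the KEGG ortholog of one of them, and 4 of these were listed at 0 in every sample. One was Sgo2b, and the other was a locus assembled by the authors, without a gene name, annotated with the ortholog of SGOL2. It had 1.80, 2.18 and 2.41 FPKM in IVM and 3.98, 5.33 and 4.88 FPKM in IVO, so the groups did not overlap. Its log2FC was 0.87 with a standard error of 0.22 (limma, adjusted p = 0.03), while Sgo2a and Sgo2b had 0.07 and -0.09. About 42 to 66 fragments stood behind its IVM values and 98 to 131 behind its IVO values. The locus was singled out after its values were seen, and whether it is a transcript of either shugoshin gene was not tested.

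Some pathway genes that did not pass were far more abundant than the ring subunits, with differences in both directions. Hdac8 had the highest means of the lists, 4258 ± 923 FPKM in IVM and 3017 ± 392 FPKM in IVO. The log2FC of Hdac8 was -0.48 (limma, adjusted p = 0.116), and it passed with lower values when the length trend was removed. Ccnb1 had 1667 ± 225 and 1990.3 ± 137 FPKM, with a log2FC of 0.26 (limma, adjusted p = 0.256). Esco2, the acetyltransferase of SMC3 in S phase, had a mean of 1119 ± 112 FPKM in IVM and 1473 ± 75.1 FPKM in IVO (SD, n = 3), with a log2FC of 0.40 (limma, adjusted p = 0.0816). Mad2l1, the checkpoint protein MAD2, had 1148 ± 265 and 1745 ± 139 FPKM, with a log2FC of 0.63 (limma, adjusted p = 0.061). Esco2 and Mad2l1 passed with median-ratio scaling, at 0.72 (limma, adjusted p = 0.0193) and 0.95 (limma, adjusted p = 0.0328). Ddx11, a helicase of cohesion establishment, had the most negative log2FC of the lists, -1.96 with an interval of -3.75 to -0.17, and did not pass without a replicate block (limma, adjusted p = 0.108), with 37.30, 135.91 and 31.48 FPKM in IVM and 4.05, 25.03 and 21.18 FPKM in IVO. These genes were chosen after their values were seen.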
